A study of Mus musculus with 2 samples.

Results

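Macrophages and dendritic cells of the colon were followed in 2 droplet single-cell RNA libraries. They were chosen by their measured UMIs of the marker genes, from all barcodes with at least 1000 UMIs (unique molecular identifiers, a count of captured RNA molecules), at least 200 genes and under 10% mitochondrial UMIs. A member needed at least 3 UMIs of Tyrobp and Fcer1g together, at least 3 UMIs of Lyz2, C1qa, C1qb and Il1b together, and at most 1 UMI each of Cd79a, Cd3e and Epcam. Of 1026 passing barcodes, 64 were members. Members with at least 5 UMIs over C1qa, C1qb and C1qc were called macrophage-like and the others dendritic or monocyte-like.

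The first library held colon cells of wild-type C57BL/6 mice given THC (Δ9-tetrahydrocannabinol, the main psychoactive compound of cannabis) at 10 mg/kg, and the second held colon cells of wild-type C57BL/6 mice given vehicle control. Tissue was first held in EDTA, which loosens epithelium, and digested with Dispase, DNAse and collagenase D, and cells of the lamina propria were enriched on Percoll before droplet capture. The labels leave out the number, sex and age of the mice and the time between dose and harvest. Each group was a single library, so no difference was tested: the intervals below are 95% intervals for counting error only and hold nothing of the variation between mice or preparations.

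Macrophages of the gut wall take up dead cells and microbes, degrade them in lysosomes, and make complement C1q. Much of the pool is replaced by blood monocytes that lose Ly6c2 and Ccr2 and gain MHC class II and C1q, while longer-lived macrophages sit near vessels, nerves and muscle and are known by genes such as Lyve1, Folr2, Cd163 and F13a1. Dendritic cells carry antigen on MHC class II to T cells. The Clec9a and Xcr1 lineage (type 1) takes up dead cells and primes cytotoxic T cells, and Ccr7 guides activated dendritic cells to lymph nodes.

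Members differed from each other in transcripts of C1q, which the rule itself used, and in those of MHC class II, which it did not. The 250 bases before the RefSeq start of 5 of these genes (build GRCm38.p6) are shown. The reason was that C1qb and C1qc were read together in macrophage-like barcodes, and that H2-Aa and H2-Eb1 were low together in a subset. That subset was set by a sum holding both genes, so their being low together follows in part from the choice. H2-DMb1, a further MHC class II gene, was not in that sum. Capitals mark ATTGG or its reverse CCAAT, the core of the Y box known from MHC class II promoters, in the first 3 sequences. In the other 2 sequences they mark AGGAAGT or its reverse ACTTCCT, a motif of the kind bound by the myeloid factor PU.1 (Spi1).
H2-Aa: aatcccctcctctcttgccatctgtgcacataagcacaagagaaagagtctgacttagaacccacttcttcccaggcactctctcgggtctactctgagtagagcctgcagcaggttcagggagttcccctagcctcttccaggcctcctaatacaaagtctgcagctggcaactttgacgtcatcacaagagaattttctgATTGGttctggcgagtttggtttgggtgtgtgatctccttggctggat
H2-Eb1: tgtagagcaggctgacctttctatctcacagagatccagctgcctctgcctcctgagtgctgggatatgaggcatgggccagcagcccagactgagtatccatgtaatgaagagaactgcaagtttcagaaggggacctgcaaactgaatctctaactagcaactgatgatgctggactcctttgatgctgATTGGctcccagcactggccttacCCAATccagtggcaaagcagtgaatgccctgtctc
H2-DMb1: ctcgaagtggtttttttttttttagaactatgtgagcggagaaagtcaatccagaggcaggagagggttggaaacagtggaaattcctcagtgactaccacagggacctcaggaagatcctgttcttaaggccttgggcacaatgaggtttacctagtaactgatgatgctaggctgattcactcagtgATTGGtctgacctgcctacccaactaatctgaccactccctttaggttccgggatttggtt
C1qb: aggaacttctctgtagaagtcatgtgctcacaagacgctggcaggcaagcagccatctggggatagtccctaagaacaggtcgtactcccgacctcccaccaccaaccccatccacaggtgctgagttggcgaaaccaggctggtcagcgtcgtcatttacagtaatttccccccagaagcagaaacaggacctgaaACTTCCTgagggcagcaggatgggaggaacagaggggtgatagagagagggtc
C1qc: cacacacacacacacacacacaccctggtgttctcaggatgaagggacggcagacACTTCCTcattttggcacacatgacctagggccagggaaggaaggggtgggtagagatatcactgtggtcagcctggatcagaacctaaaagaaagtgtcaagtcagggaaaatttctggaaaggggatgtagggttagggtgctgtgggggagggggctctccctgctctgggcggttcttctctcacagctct

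The windows lie at chr17:34287824-34288073 (minus strand) for H2-Aa, chr17:34305617-34305866 (plus strand) for H2-Eb1, chr17:34152941-34153190 (plus strand) for H2-DMb1, chr4:136886201-136886450 (minus strand) for C1qb and chr4:136892915-136893164 (minus strand) for C1qc. ATTGG, searched on both strands of the same 250 bases, was in 33.8% of 32851 RefSeq promoters. It began 48 bases before the start of H2-Aa and 61 bases before that of H2-DMb1, and H2-Eb1 held 2 copies, 59 and 35 bases before its start. AGGAAGT was in 7.69% of promoters and began 53 bases before C1qb and 195 bases before C1qc. TGCTGA, the core letters of sites bound by Maf factors, was in 16.1% of promoters, and of these 5 in H2-Eb1 and C1qb. The motifs were picked after others had been tried, and a match is a description of the letters, not a site shown to be bound.

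The THC library gave 396 passing barcodes and 20 members (5.05%, exact binomial interval 3.11 to 7.69), and the vehicle library 630 passing barcodes and 44 members (6.98%, 5.12 to 9.26). The intervals overlapped. Macrophage-like barcodes were 15 of 20 members in the THC library (75.0%, 50.9 to 91.3) and 33 of 44 in the vehicle library (75.0%, 59.7 to 86.8). The 2 files had been handled differently before deposit, since the THC file held all 737280 barcodes of the chemistry and the vehicle file 973 called ones, the smallest with 502 UMIs. Members had a median of 8034.5 UMIs in the THC library and 5624 in the vehicle library. Macrophage-like barcodes had medians of 7258 UMIs (THC) and 4856 UMIs (vehicle), and dendritic or monocyte-like barcodes medians of 8417 UMIs (THC) and 11673 UMIs (vehicle). Summed member UMIs came to 164644 in the THC library and 300344 in the vehicle library, out of 7080022 UMIs in all for THC and 7786409 for vehicle.

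The gate was not crowded at its limits. No member had exactly 3 UMIs in either sum, and 1 THC barcode and 2 vehicle barcodes had 2 UMIs of Tyrobp and Fcer1g. In the sum of Lyz2, C1qa, C1qb and Il1b, 1 THC and 0 vehicle barcodes had 2 UMIs. Of 33 THC and 71 vehicle barcodes that met the Tyrobp and Fcer1g limit, 21 THC and 48 vehicle barcodes also met this second one. Epcam removed 1 THC barcode and 3 vehicle barcodes, and Cd79a removed 1 vehicle barcode. C1q sums lay between 5 and 10 in 1 THC and 3 vehicle barcodes, just inside the macrophage-like class, and between 1 and 4 in 1 THC and 1 vehicle barcode, just outside it. The other 4 THC and 10 vehicle barcodes of the dendritic or monocyte-like class had no C1q UMI. Across libraries, 2 barcode sequences had at least 500 UMIs in both, 1 of them a member, which is given with and without in the alternatives; no barcode was a member in both.

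Markers that the rule had not used bore out the class names only in part. Clec9a, the receptor for dead cells of type 1 dendritic cells, had 12 UMIs in 3 of 5 THC and 30 UMIs in 5 of 11 vehicle dendritic or monocyte-like barcodes, and no UMI in the 15 THC or 33 vehicle macrophage-like barcodes. Xcr1, Itgae, Zbtb46 and Ccr7 likewise had no UMI in macrophage-like barcodes of either library. Other dendritic markers did not separate the classes: Sirpa, an inhibitory receptor also of macrophages, was in 73.3% of THC macrophage-like and 20% of THC dendritic or monocyte-like barcodes, and in 75.8% and 27.3% of those classes in the vehicle library. The lectin Mgl2 was in 46.7% and 0% of those classes in the THC library and in 39.4% and 9.09% in the vehicle library. Itgax, the integrin CD11c, was in 66.7% of macrophage-like and 40% of dendritic or monocyte-like barcodes of the THC library, and in 27.3% and 81.8% of those of the vehicle library. The epithelial, fibroblast and B cell barcodes compared here held at most 1 UMI of Tyrobp and Fcer1g together. Low values of the rule's markers in them follow in part from that limit. C1qb was in 0.826% of THC and 0% of vehicle epithelial barcodes (median 18266 UMIs for THC and 14498 for vehicle). Lyz2, a lysozyme, was in 0% of epithelial barcodes of both libraries, but in 5.93% of THC and 2.55% of vehicle fibroblast barcodes. Tyrobp was in 20.5% of THC and 14.7% of vehicle B cell barcodes. C1qa was in 4.96% of THC and 7.23% of vehicle epithelial barcodes, against 93.3% of THC and 100% of vehicle macrophage-like ones. Markers of mast cells, eosinophils, B cells and plasma cells summed to at most 8 UMIs per list and library over all members. S100a8 and S100a9, the most abundant neutrophil transcripts, had no UMI in members of either library. Of the other neutrophil markers the protease Mmp9 reached 12 THC and 55 vehicle UMIs in macrophage-like barcodes, and of those of plasmacytoid dendritic cells Tcf4 had 4 THC and 29 vehicle UMIs. The part of such cells in the results was not tested.

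A few members carried transcripts of other cell types, and results were also computed without them. The macrophage-like THC barcode with the most UMIs (19242) had 11 UMIs of T cell receptor and CD3 genes, all 21 of the Plac8 UMIs of that class, and 53 of its 71 Ccl5 UMIs. A vehicle macrophage-like barcode of 10630 UMIs held 132 of the 133 Dcn UMIs of its class, Dcn being a proteoglycan of fibroblasts. A vehicle dendritic or monocyte-like barcode of 14890 UMIs had 30 UMIs of fibroblast genes together with Isg15, Ccl5 and Cxcl10. The scrublet caller marked 1 THC and 2 vehicle barcodes of all barcodes with at least 1000 UMIs, and of these 1 was a vehicle member.

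**Figure D1:**
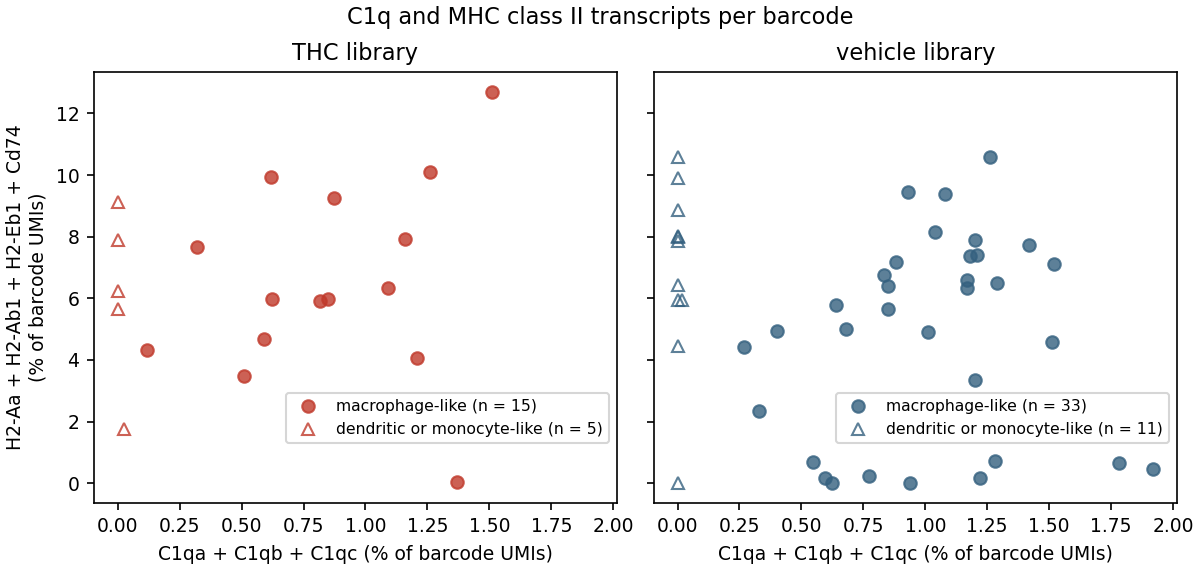
Each point is a member barcode, with the share of its UMIs from C1qa, C1qb and C1qc on the x axis and from H2-Aa, H2-Ab1, H2-Eb1 and Cd74 on the y axis, THC library left and vehicle library right; filled circles are macrophage-like and open triangles dendritic or monocyte-like. Macrophage-like barcodes under 2% MHC class II number 1 of 15 in the THC library and 9 of 33 in the vehicle library.

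The genes named next were ranked by the smaller of their 2 library ratios between macrophage-like and dendritic or monocyte-like barcodes, so that they point the same way in both libraries follows from the ranking. Because the split used C1q as well, the ratios are a description. Other genes did not point the same way: Lgals3 was at 0.46 log2 units, macrophage-like over dendritic or monocyte-like, in the THC library and at -0.82 in the vehicle library, Isg15 at 2.96 (THC) and -1.54 (vehicle), and Ftl1 at -0.21 (THC) and 1.54 (vehicle). On the macrophage-like side, Apoe, which carries lipid out of cells, had 912 UMIs in the 15 THC macrophage-like barcodes and 0 in the 5 others, at least 7.01 log2 units apart, and 2325 against 16 UMIs in the vehicle library (6.57 log2 units). Selenop, a secreted selenium carrier, stood 6.37 log2 units apart in the THC library and 6.56 in the vehicle library. Csf1r, the receptor for the macrophage growth factor, stood 4.62 apart in the THC library and 5.05 in the vehicle library. C5ar1, the receptor for complement C5a, Rgl1, a guanine exchange factor of the Ral pathway, Pla2g7, which cleaves platelet-activating factor, and the lysosomal protease Lgmn were also among the 8 with the largest smaller ratio.

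On the dendritic or monocyte-like side, Ccr7 had 41 UMIs in the THC library and 97 in the vehicle library, and no UMI in the macrophage-like barcodes of either. H2-DMb2, a chain of the peptide-loading factor H2-DM, had 27 UMIs in the 5 THC barcodes against 6 in THC macrophage-like ones, and 65 in the 11 vehicle barcodes against 2 in vehicle macrophage-like ones. The same side held the protease inhibitors Serpinb6b and Serpinb9, the glycosyltransferase Gcnt2, the mannosyltransferase Tmtc2, the lysophosphatidylserine receptor P2ry10 and the carnitine carrier Slc25a20.

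Macrophage-like barcodes held a larger share of MHC class II transcripts in the THC library and less of the genes of perivascular macrophages, of immediate early factors and of several chemokines. A gene was measured where the 2 libraries together had at least 20 of its UMIs in the class, and of 2074 such genes 5.11% were at least 1 log2 unit higher and 12.2% at least 1 log2 unit lower in the THC library, and 44.5% were higher and 55.5% lower at all, the median being -0.11. All ratios below are THC over vehicle, on the log2 scale of CPM, the summed UMIs of a gene scaled to a common total. In sums over cells, fewer cells of a kind and less RNA per cell cannot be told apart.

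Of the 13 genes listed for MHC class II presentation, 8 were measured in macrophage-like barcodes, 7 were higher and 1 lower among THC barcodes, none by a full log2 unit, and the median was 0.61. H2-Aa and H2-Ab1, the chains of the I-A molecule, had log2 ratios of 0.62 and 0.60, and H2-Eb1, a chain of I-E, of 0.70. Cd74, the invariant chain that guides the molecule to endosomes, had 4315 THC and 4901 vehicle UMIs (0.47). H2-DMa and H2-DMb1, the chains of H2-DM, had log2 ratios of 0.67 and 0.83, and the protease Ctss, which trims the invariant chain, 0.38. Lgmn was the member on the other side (-0.15). With mitochondrial shares under 5% the median of the list was 0.30, and the median mitochondrial share of macrophage-like barcodes was 3.62% in the THC library and 5.07% in the vehicle library; its part in the result was not tested. The listed genes made up 7.28% of macrophage-like UMIs in the THC library and 5.04% in the vehicle library.

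Seen barcode by barcode, much of this lay in barcodes that nearly lacked the transcripts. H2-Aa had a lowest, median and highest value of 0, 115 and 223 UMIs per 10000 UMIs over the 15 THC barcodes, and of 0, 92.7 and 186 over the 33 vehicle barcodes. The ranges overlapped almost fully. The share of UMIs from H2-Aa, H2-Ab1, H2-Eb1 and Cd74 had medians of 5.99% in the THC library and 5.66% in the vehicle library. Under a cut of 2%, set after the values were seen, lay 1 of 15 THC barcodes (6.67%, 0.169 to 31.9) and 9 of 33 vehicle barcodes (27.3%, 13.3 to 45.5). The intervals overlapped, and 1 macrophage-like barcode, a vehicle one at 2.35%, lay between 1.5% and 2.5%. Among macrophage-like barcodes at or above 2%, 14 THC and 24 vehicle, the median log2 ratio of the MHC class II list was 0.15 instead of 0.61. As a measure of free RNA, H2-Aa was in 1.65% of THC and 1.81% of vehicle epithelial barcodes.

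The barcodes with little MHC class II were macrophage-like by their other genes. In the vehicle library the 9 of them held 1009 Apoe and 115 Csf1r UMIs, and each of these genes was found in all 9. They also held 227 C1qa UMIs, but the rule used C1qa, so its presence follows in part from the class. F13a1, the coagulation factor subunit made by resident macrophages, had 64 UMIs in these 9 vehicle barcodes and 21 in the other 24, a log2 CPM ratio of 2.52 (1.79 to 3.30). The hyaluronan receptor Lyve1 stood at 3.49 (1.33 to 6.70), the haemoglobin scavenger Cd163 at 2.44 (1.30 to 3.72), the folate receptor Folr2 at 2.09 (1.02 to 3.26) and the mannose receptor Mrc1 at 1.10 (0.57 to 1.63). Timd4, the phosphatidylserine receptor of the same list, had 1 UMI in the low barcodes and 3 UMIs in the others. The ratios are within the vehicle library, low over high, so they compare barcodes and not mice. Timd4 lay more in the other class, with 12 THC and 21 vehicle UMIs in dendritic or monocyte-like barcodes. Macrophage-like barcodes held 2 THC and 4 vehicle UMIs of it.

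Other genes differed along the same division of the vehicle barcodes. The transcription factor Maf (2.49, 1.65 to 3.41), the lysosomal protease Ctsd (2.11, 1.65 to 2.59) and the flow-induced factor Klf2 (3.72, 2.20 to 5.69) were higher in low-MHC barcodes. The galectin Lgals3 was lower in them (-1.83, -2.61 to -1.13). Itgax, which many gut macrophages share with dendritic cells, had 0 UMIs in the 9 low barcodes and 18 in the 24 others, and Ccr2 had 0 UMIs in the low ones and 7 in the others. C1qb was nearly level at -0.07 (-0.29 to 0.15). The single THC barcode under 2% had 3 F13a1, 3 Cbr2 and 8 Mrc1 UMIs, and no Lyve1, Cd163 or Folr2 UMI. Median mitochondrial shares of barcodes under and over the cut were 4.62% and 3.37% in the THC library and 5.34% and 4.92% in the vehicle library, and the part of RNA quality was not tested. Of the 9 vehicle barcodes, 1 is the barcode with Dcn.

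**Figure D2:**
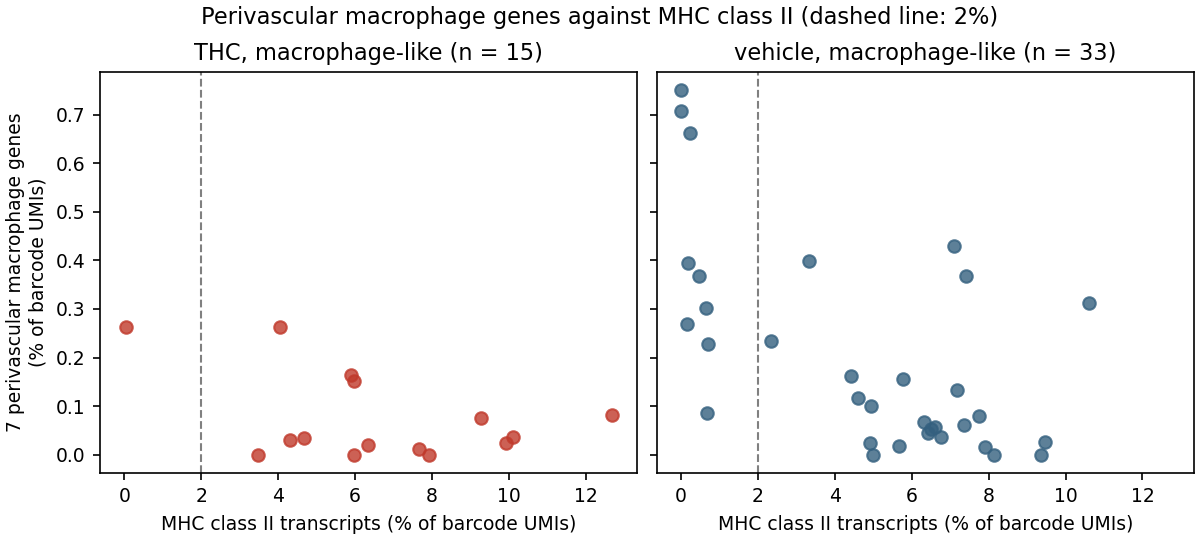
Each point is a macrophage-like barcode, with the MHC class II share of its UMIs on the x axis and the share of Lyve1, Cd163, Folr2, Timd4, F13a1, Cbr2 and Mrc1 on the y axis, THC library left and vehicle library right, and the dashed line at 2%. The vehicle barcodes left of the line reach the largest shares of the 7 genes, and 1 THC barcode lies left of it.

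Over all macrophage-like barcodes, Spearman's rho between the MHC class II and the perivascular share was -0.20 in the THC library (n = 15) and -0.58 in the vehicle library (n = 33). These are descriptions, since both shares have the same barcode total as denominator. The perivascular genes made up 0.0632% of macrophage-like UMIs in the THC library and 0.191% in the vehicle library. Of the 7, 5 were measured and all 5 were at least 1 log2 unit lower in THC, the median being -1.85, against 12.2% of all measured genes. F13a1 had 15 UMIs in 6 of 15 THC barcodes and 85 UMIs in 17 of 33 vehicle barcodes (-1.85, -2.75 to -1.05). Folr2 had 4 THC and 36 vehicle UMIs (-2.52), Mrc1 36 THC and 124 vehicle UMIs (-1.13) and Cd163 11 THC and 35 vehicle UMIs (-1.02). Among barcodes at or above 2% MHC class II the median of the list was -0.83.

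Lyve1 was found in 6.67% of THC macrophage-like and 8.26% of THC epithelial barcodes. These differed in median depth (7258 UMIs for macrophage-like and 18266 for epithelial). Its 2 THC macrophage-like UMIs were in 1 barcode that also held 5 F13a1 and 8 Mrc1 UMIs. The part of free RNA was not tested. In the vehicle library Lyve1 was found in 18.2% of macrophage-like and 7.83% of epithelial barcodes. Cbr2, a carbonyl reductase of resident macrophages that epithelium also expresses, was in 6.67% of THC macrophage-like and 13.2% of THC epithelial barcodes, and in 39.4% of vehicle macrophage-like and 22.3% of vehicle epithelial barcodes.

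The named genes higher in THC macrophage-like barcodes, by the counting bound nearest 0, included several of the cytoskeleton and of membranes. Vim, the intermediate filament vimentin, had 403 UMIs in 13 of 15 THC barcodes and 264 UMIs in 27 of 33 vehicle barcodes (log2 ratio 1.26, 1.04 to 1.49). Its lowest, median and highest values per 10000 UMIs were 0, 26.2 and 82.7 in the THC library and 0, 11.5 and 49.2 in the vehicle library, so the ranges overlapped. Lgals3, which binds glycans of damaged membranes, had 217 UMIs in the THC library and 146 in the vehicle library (1.22, 0.91 to 1.54), with medians per 10000 UMIs of 12.1 for THC and 4.54 for vehicle. Fxyd5, a subunit that regulates the sodium pump, had 86 THC and 40 vehicle UMIs (1.76), and the glycolytic enzyme Pkm 47 UMIs in 14 of 15 THC barcodes and 25 UMIs in 15 of 33 vehicle barcodes (1.56). Anxa2, a calcium-dependent membrane-binding annexin, had 33 THC and 5 vehicle UMIs (3.37, 2.01 to 5.09), with 42.4% of its THC UMIs in 1 barcode. It was in 8 of 15 THC and 4 of 33 vehicle barcodes, which differed in median depth (7258 UMIs for THC and 4856 for vehicle). Its CPM was 23% of that in the gated population of other cells where it was highest, and the part of free RNA was not tested. All 5 genes remained on the same side among barcodes at or above 2% MHC class II. Their log2 ratios there were 1.05 for Vim, 0.81 for Lgals3, 1.36 for Fxyd5, 1.17 for Pkm and 2.83 for Anxa2.

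Like Anxa2, the other 3 of the 8 had over 40% of their THC UMIs in 1 barcode. Crip1, a small LIM-domain protein, had 278 UMIs in the THC library and 95 in the vehicle library (2.20, 1.86 to 2.55), and 132 of the 278 came from a THC barcode whose C1q sum was 8. With a C1q sum of at least 10 for the class, its log2 ratio was 1.34. Cxcl3, a chemokine that attracts neutrophils, had 49 UMIs in 5 THC barcodes and 19 UMIs in 5 vehicle barcodes (2.02), 15 of the 19 in 1 barcode. Oasl1, an interferon-induced gene known in mouse to limit production of Irf7, had 30 THC and 13 vehicle UMIs (1.86), with a log2 ratio of 0.99 under the C1q sum of at least 10.

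The named genes lower in THC macrophage-like barcodes were led by a lipid droplet protein and a chemokine. Hilpda, which is induced by hypoxia and blocks fat breakdown in lipid droplets, had 3 UMIs in 1 of 15 THC barcodes and 61 UMIs in 21 of 33 vehicle barcodes (-3.69, -6.01 to -2.08). Ccl4, which attracts monocytes and T cells, had 38 UMIs in 7 THC barcodes and 335 UMIs in 19 vehicle barcodes (-2.49), and 141 of the 335 were in 1 barcode; without the richest barcode of each library the ratio was -2.25. Vcam1, an adhesion molecule of resident macrophages and endothelium, had 29 UMIs in 9 THC barcodes and 187 UMIs in 27 vehicle barcodes (-2.04, -2.66 to -1.47). Its medians per 10000 UMIs were 1.27 in the THC library and 5.39 in the vehicle library. Gdf15, a cytokine of cell stress, had 27 THC and 165 vehicle UMIs (-1.96), and the secreted protein Wfdc17 9 THC and 84 vehicle UMIs (-2.57). Every one of these 5 genes had its highest barcode in the vehicle library.

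Cbr2 had 3 THC and 49 vehicle UMIs (-3.38), Mylip, a ligase that degrades the LDL receptor, 3 THC and 36 vehicle UMIs (-2.93), and Nrp2, a receptor for semaphorins, 3 THC and 34 vehicle UMIs (-2.85). Mylip was in 3 of 15 THC and 15 of 33 vehicle barcodes, and Nrp2 in 2 THC and 17 vehicle barcodes. At or above 2% MHC class II the 8 lower genes kept their sign. Ratios were -3.87 for Hilpda, -2.65 for Ccl4, -1.99 for Vcam1, -1.83 for Gdf15, -2.22 for Wfdc17, -2.70 for Mylip and -3.98 for Nrp2. Cbr2 had 0 THC and 20 vehicle UMIs there, so its -2.63 is a bound set against the floor of 3 UMIs.

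**Figure D3:**
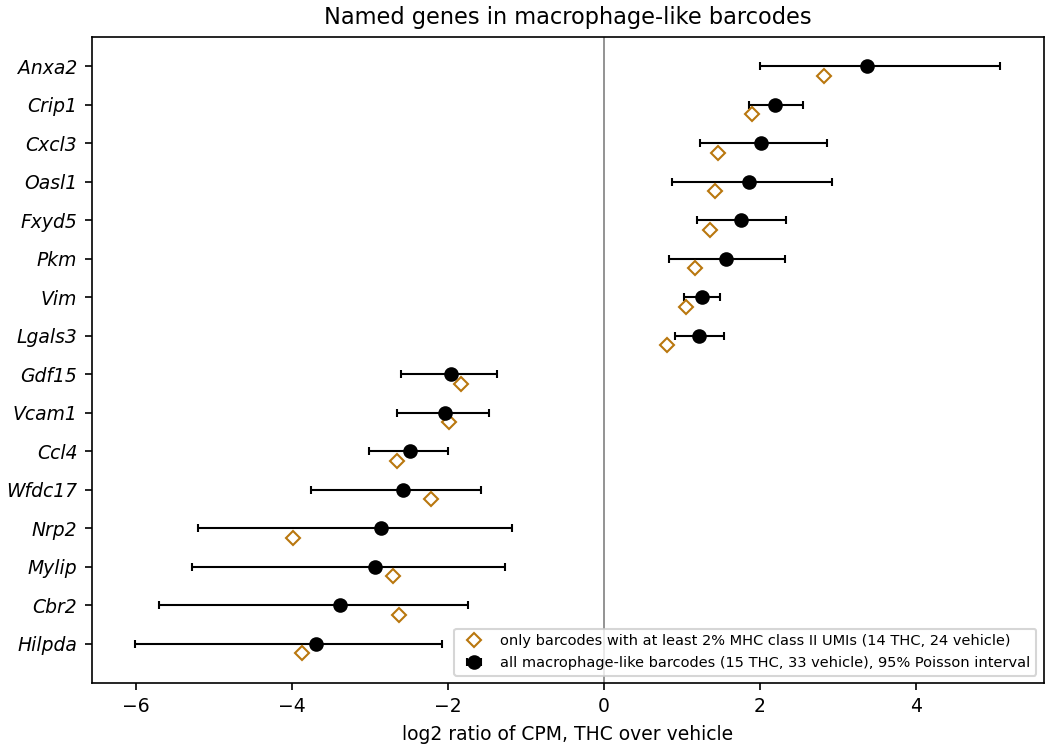
Log2 ratios of CPM, THC over vehicle, of the 16 named genes in macrophage-like barcodes, with 95% Poisson intervals for counting error. Diamonds give the ratio over barcodes with at least 2% MHC class II UMIs. The diamond of Cbr2 is a bound, with 0 THC UMIs. The diamonds of all 16 genes lie on the same side of 0 as the circles; the circles run from Anxa2 at 3.37 to Hilpda at -3.69 and the diamonds from Anxa2 at 2.83 to Nrp2 at -3.98.

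Among signals and their receptors, the CC chemokines had a median of -0.73 over 8 measured genes, with 3 higher and 5 lower in THC. Besides Ccl4, Ccl3 had 28 THC and 100 vehicle UMIs (-1.19) and Ccl8 5 THC and 29 vehicle UMIs (-1.88), with 79.3% of the vehicle Ccl8 UMIs in 1 barcode. The monocyte attractants Ccl2 and Ccl7 had log2 ratios of -0.93 and -0.53, and Ccl6 and Ccl9 of 0.22 and 0.92. Ccl5 had 71 UMIs in 3 THC barcodes and none in the vehicle library, a ratio of at least 5.22 against a floor of 3 UMIs, with 74.6% in the barcode that also held T cell transcripts. The CXC chemokines had a median of -0.93 over 6 genes, 1 higher and 5 lower. Cxcl2, which attracts neutrophils, had 249 UMIs in the THC library and 670 in the vehicle library (-0.78), and Pf4, platelet factor 4, had 99 THC and 330 vehicle UMIs (-1.09). Cxcl1 (-1.63) and Cxcl10 (-1.53) had 65.4% and 50% of their vehicle UMIs in single barcodes.

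Chemokine receptors differed among themselves. Ccr2, the receptor by which monocytes leave the marrow, had 19 UMIs in 4 THC barcodes and 7 UMIs in 4 vehicle barcodes (2.09, 0.78 to 3.59). All 8 of those barcodes had more than 4% MHC class II. Cxcr4, the receptor for stromal Cxcl12, had 31 THC and 109 vehicle UMIs (-1.16), and Cx3cr1, the fractalkine receptor of gut macrophages, 34 THC and 77 vehicle UMIs (-0.53). Of 9 monocyte markers 3 were measured, and Ly6c2 had 5 UMIs in 1 THC barcode, the one with T cell transcripts, and none in vehicle macrophage-like barcodes.

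All 5 measured inflammatory genes were lower in THC barcodes, none by a full log2 unit, and their median was -0.67. Il1b, the pyrogenic cytokine, which the rule used, had 102 THC and 254 vehicle UMIs (-0.66), and its natural antagonist Il1rn 41 THC and 72 vehicle UMIs (-0.16). Tnf had 7 THC and 19 vehicle UMIs (-0.79) and Nlrp3, the inflammasome sensor, 14 THC and 43 vehicle UMIs (-0.97). Of 11 genes that restrain inflammation 8 were lower as well, with a median of -0.51: Zfp36, which destabilises cytokine mRNAs, had 58 THC and 232 vehicle UMIs (-1.35), the receptors Tgfbr1 and Tgfbr2 were at -1.22 and -1.32, and Il10 had 12 THC and 17 vehicle UMIs (0.15). Of 4 measured co-stimulation genes, Cd86 (-1.20) and Cd83 (-1.17) were over 1 log2 unit lower, and Cd40 had 22 THC and 19 vehicle UMIs (0.86). Cd83, which stabilises MHC class II at the surface, was found in 15 of 15 THC and 32 of 33 vehicle barcodes, with medians per 10000 UMIs of 6.97 for THC and 20.7 for vehicle.

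Immediate early genes, which are known to respond within minutes to stimuli and also to tissue digestion, were mostly lower in the THC library. Of 14 measured, 1 was higher and 13 were lower, 8 of them by at least 1 log2 unit, with a median of -1.12. Nr4a1, the orphan nuclear receptor of patrolling monocytes, had 14 UMIs in 6 THC barcodes and 81 UMIs in 18 vehicle barcodes (-1.88, -2.81 to -1.05). Fos had 27 THC and 124 vehicle UMIs (-1.55), Atf3 43 THC and 194 vehicle UMIs (-1.52), Ier2 13 THC and 55 vehicle UMIs (-1.43), Fosl2 14 THC and 56 vehicle UMIs (-1.35), Jun 44 THC and 153 vehicle UMIs (-1.15) and Egr1 23 THC and 77 vehicle UMIs (-1.09). In the THC library 1 barcode held over 50% of the UMIs of each of Jun, Atf3, Egr1 and Ier2. Jund, the most abundant of the list, had 322 THC and 680 vehicle UMIs (-0.43), and Btg2 was the member on the higher side (0.18). At or above 2% MHC class II the list's median was -0.68. The part of digestion in these values was not tested.

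Stress chaperones differed less. The median of 10 cytosolic heat shock genes was -0.07, with Hspa1a at 50 THC and 157 vehicle UMIs (interval -1.49 to -0.53) and Hspa8 at 213 THC and 417 vehicle UMIs (-0.32). Of 12 genes of the endoplasmic reticulum, with a median of -0.05, the chaperone Hspa5 had 394 THC and 599 vehicle UMIs (0.05), while Herpud1, of protein degradation at that membrane, had 58 THC and 234 vehicle UMIs (-1.36) and Ddit3, the stress factor CHOP, 12 THC and 53 vehicle UMIs (-1.49). NF-kappaB genes had a median of -0.42 over 12, with Nfkbia, the inhibitor induced by the pathway, at 65 THC and 125 vehicle UMIs (-0.29), Nfkb2 at 8 THC and 34 vehicle UMIs (-1.44), and Tnfaip3, which ends the signal, at 9 THC and 29 vehicle UMIs (-1.04, -2.30 to 0.08).

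**Figure D4:**
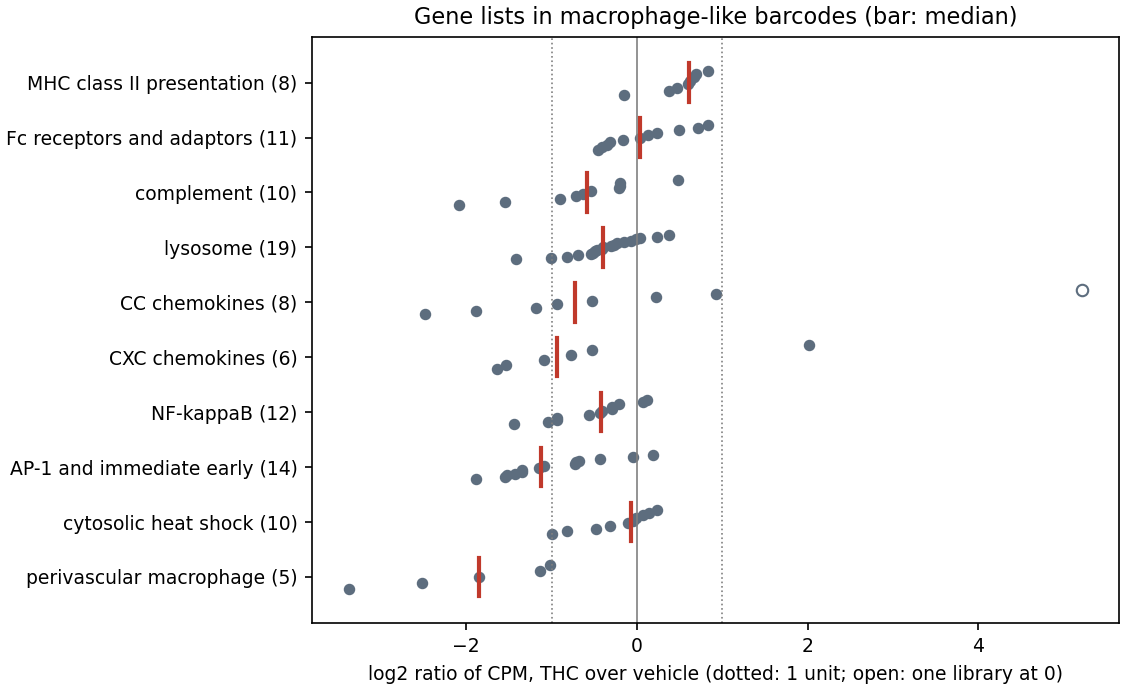
Log2 ratios of CPM, THC over vehicle, of the measured genes of 10 lists in macrophage-like barcodes, with their number in brackets, the median as a red bar and dotted lines at 1 log2 unit. The MHC class II list has its median at 0.61 and the AP-1 and perivascular lists theirs at -1.12 and -1.85, beside -0.11 for all measured genes.

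Genes of uptake and degradation were mostly lower, by small amounts, in the THC library. Complement genes had a median of -0.59 over 10, 9 of them lower. C1qa, C1qb and C1qc, chains of a single molecule, were at -0.63, -0.20 and -0.54, and the rule used these genes. C3 had 3 THC and 20 vehicle UMIs (-2.09). Of 19 lysosomal genes 16 were lower, with a median of -0.40: Ctsb had 285 THC and 627 vehicle UMIs (-0.49), Ctsd 44 THC and 185 vehicle UMIs (-1.42, -1.93 to -0.94), Lipa, the acid lipase, 13 THC and 41 vehicle UMIs (-1.01), and Psap, the precursor of the saposins, 480 THC and 580 vehicle UMIs (0.38). Ctsd was higher in vehicle barcodes with little MHC class II, and at or above 2% the lysosomal median was -0.16. Over the 13 macrophage markers, 12 of them measured, 2 were higher and 10 lower, and their median was -0.50. These markers include C1qa, C1qb and C1qc, which the rule used. Scavenger receptors had a median of -0.12 over 9 genes, 4 of them higher. Fc receptors and their adaptors were level, with a median of 0.04 and 6 of 11 higher. This list includes Tyrobp and Fcer1g, which the rule used. Syk, the kinase behind the Fc receptors, had 33 THC and 58 vehicle UMIs (-0.16).

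Metabolic genes gave larger single ratios, with medians of -0.09 over 9 genes of lipid handling and of -0.35 over 5 of iron handling. Apoe had 912 UMIs in 13 of 15 THC barcodes and 2325 UMIs in all 33 vehicle barcodes (-0.70), with medians per 10000 UMIs of 88.0 for THC and 110 for vehicle. Abca1, which loads cholesterol onto lipoproteins, had 13 THC and 71 vehicle UMIs (-1.80). In iron handling, ferritins Fth1 and Ftl1 were at -0.15 and -0.35, the iron exporter Slc40a1 had 2 THC and 18 vehicle UMIs (-2.52) and the phagosomal metal pump Slc11a1 26 THC and 98 vehicle UMIs (-1.26). Among growth factors, Igf1 had 6 THC and 25 vehicle UMIs (-1.41), Pdgfb 0 THC and 23 vehicle UMIs over 9 vehicle barcodes, at least 2.29 log2 units lower, and Areg 0 THC and 23 vehicle UMIs, of which 95.7% were in 1 vehicle barcode. Of 7 antimicrobial and oxidase genes 6 were lower (median -0.58). Lyz2, which the rule used, was at -0.64, and Cybb, the oxidase subunit, at 0.21.

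Transcription factors of the lineage were lower for 9 of 10 measured genes, with a median of -0.62. Maf, a factor of resident macrophages, had 11 THC and 64 vehicle UMIs (-1.89). Cebpb had 145 THC and 453 vehicle UMIs (-0.99), with medians per 10000 UMIs of 7.72 for THC and 23.5 for vehicle. Spi1, the gene of PU.1, was at -0.23. Klf2 was the higher one (44 THC and 32 vehicle UMIs, 1.11), with 63.6% of its THC UMIs in 1 barcode. Of 5 Toll-like receptor genes, with a median of -0.42, Tlr7, the endosomal sensor of RNA, had 1 THC and 20 vehicle UMIs (-3.67) and Tlr2, of bacterial lipoproteins, 14 THC and 48 vehicle UMIs (-1.13), while Cd14 had 121 THC and 254 vehicle UMIs (-0.42).

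Interferon-stimulated genes were mostly under 20 UMIs: 3 of 18 were measured in macrophage-like barcodes. Isg15, a ubiquitin-like modifier, had 55 UMIs in 9 THC barcodes and 42 UMIs in 14 vehicle barcodes (1.04), with 20 of the THC UMIs in 1 barcode and 21 of the vehicle UMIs in another, and 93.9% of the 33 THC UMIs of Rsad2 were in 1 barcode. Bst2 was on the other side (-0.92).

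The receptors through which THC acts were close to undetected in both libraries. Cnr1 had no UMI in members of the macrophage-like class, and Cnr2, the cannabinoid receptor of immune cells, had 0 THC UMIs and 1 vehicle UMI. Among 115564 THC and 181560 vehicle macrophage-like UMIs, such counts speak of detection at this depth and not of absence. Of 17 genes for cannabinoid receptors and for the enzymes of their natural ligands, only Abhd12, a lysophospholipase, was measured, with 7 THC and 29 vehicle UMIs (-1.40, -2.83 to -0.18). Faah, Mgll, Dagla, Trpv1 and Ppara had no UMI.

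The dendritic or monocyte-like class was small, 5 THC and 11 vehicle barcodes. Of 997 measured genes 8.32% were at least 1 log2 unit higher and 11.2% lower in THC barcodes, the median being -0.04. Without the richest barcode of each gene, 10 genes instead of 83 were at least 1 log2 unit higher. MHC class II genes were level, with 5 of 10 higher and a median of 0.00. H2-Aa had lowest, median and highest values of 36.7, 114 and 143 UMIs per 10000 in the THC library and of 0, 135 and 182 in the vehicle library. The THC values lay within the vehicle range.

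Clec9a and Xcr1 together had at least 2 UMIs in 2 of 5 THC barcodes (40.0%, 5.27 to 85.3) and in 5 of 11 vehicle barcodes (45.5%, 16.7 to 76.6). The Clec9a counts of those barcodes were 5 and 6 in the THC library and 5, 13, 2, 8 and 2 in the vehicle library. Irf8, the transcription factor that this lineage needs, had 41 UMIs in the THC library and 48 in the vehicle library (1.05), with 85.4% of the THC UMIs in 1 barcode. It was also in 80% of THC and 66.7% of vehicle macrophage-like barcodes. With 58.7% of THC and 60.8% of vehicle epithelial barcodes holding it as well, its presence alone does not mark the lineage here. Itgae, the integrin CD103, was in 2 of 5 THC and 7 of 11 vehicle barcodes, and Wdfy4, needed to present antigen of dead cells, in 4 of 5 THC and 8 of 11 vehicle barcodes.

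Ccr7 showed that the Clec9a barcodes and those with the migration receptor crossed. It had at least 5 UMIs in 1 of 5 THC barcodes (20%, 0.505 to 71.6) and in 5 of 11 vehicle barcodes (45.5%, 16.7 to 76.6). The THC barcode was the richest of its class (20050 UMIs) and had 41 Ccr7, 54 Ccl22, 6 Ccl17, 35 Irf8, 5 Clec9a and 2 Xcr1 UMIs. Ccl22 and Ccl17 are ligands of Ccr4 that activated dendritic cells secrete. It held 98.2% of the 55 Ccl22 UMIs of the THC library, against 2 UMIs in the vehicle library, and 83.4% of the 880 UMIs of Ftl1, the ferritin light chain. In the vehicle library the Ccr7 counts of the 5 barcodes were 7, 13, 36, 29 and 5, and 2 of the 5 also had Clec9a.

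**Figure D5:**
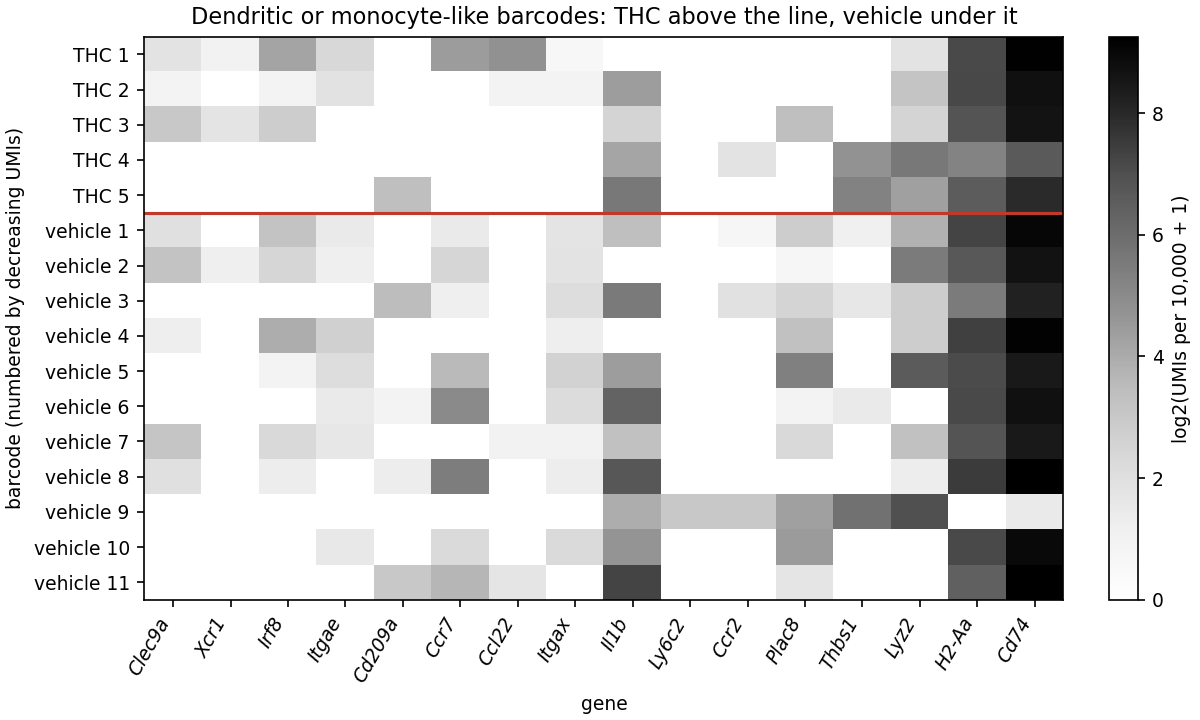
Each row is a dendritic or monocyte-like barcode, the 5 THC barcodes above the red line and the 11 vehicle barcodes under it, numbered by decreasing UMIs, and each column a gene, shaded by log2 of UMIs per 10000 plus 1. Ccl22 is dark in THC barcode 1, and vehicle barcode 9 has Ly6c2 and no H2-Aa.

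Cd209a, a lectin of type 2 dendritic cells, had 1 UMI in the THC library and 20 in the vehicle library, 15 of the 20 in the barcode that also held fibroblast transcripts. Itgax had 2 UMIs in 2 of 5 THC barcodes and 29 in 9 of 11 vehicle barcodes (-2.58, -5.70 to -0.60). The general dendritic genes Flt3, a growth factor receptor, and Zbtb46, a repressor of other myeloid fates, had few UMIs (Flt3 1 THC and 16 vehicle, Zbtb46 1 THC and 8 vehicle), under the 20 UMIs asked for a ratio. A vehicle barcode of 5726 UMIs looked different from the rest, with 4 Ly6c2, 4 Ccr2, 32 Thbs1 and 71 Lyz2 UMIs and 0.0175% MHC class II. A THC barcode of 8172 UMIs had 38 Lyz2, 21 Thbs1, 4 F13a1 and 2 C1qb UMIs and 1.77% MHC class II. Ly6c2, the monocyte marker, was in 0 of 5 THC and 1 of 11 vehicle barcodes. Thbs1 was also in 81.0% of THC and 81.9% of vehicle epithelial barcodes and reads poorly as a monocyte marker here.

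Il1b and the decoy receptor Il1r2 had more UMIs in vehicle barcodes of this class, and the rule itself used Il1b. It had 46 UMIs in the THC library and 368 in the vehicle library (-1.73, -2.20 to -1.28), and at least 50 UMIs in 0 of 5 THC and 4 of 11 vehicle barcodes. Those 4 had 68, 91, 73 and 66 Il1b UMIs. Through Il1b alone, with fewer than 3 UMIs of Lyz2, C1qa and C1qb, entered 1 of the 5 THC and 4 of the 11 vehicle barcodes, among them 3 of these 4, so the Il1b values are a description. Il1r2, which binds interleukin 1 without signalling, had 7 UMIs in 3 of 5 THC barcodes and 252 UMIs in 11 of 11 vehicle barcodes (-3.89, -5.22 to -2.83). Its lowest, median and highest values were 0, 0.998 and 3.56 per 10000 UMIs in the THC library and 0.624, 20.1 and 90.0 in the vehicle library. The 2 ranges overlapped at their low end, and 105 of the 252 UMIs came from 1 barcode. Without the barcodes that entered through Il1b alone, it had 7 UMIs in 4 THC barcodes and 79 UMIs in 7 vehicle barcodes (-2.58, -3.94 to -1.47), with medians per 10000 UMIs of 1.38 for THC and 2.93 for vehicle. Over all members Il1r2 had 51 THC and 330 vehicle UMIs (-1.83, -2.28 to -1.40).

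Plac8, a small protein of many myeloid and epithelial cells, had 8 UMIs in 1 of 5 THC barcodes and 106 UMIs in 10 of 11 vehicle barcodes of this class (-2.45, -3.70 to -1.42). It was in 0% of the 33 vehicle macrophage-like barcodes and 85.5% of vehicle epithelial barcodes. The immediate early list split, with 4 genes higher and 7 lower and a median of -1.06. Summed over the list, it made up 0.617% of THC and 0.647% of vehicle UMIs of the class, so the sum was nearly level. Fos had 5 THC and 67 vehicle UMIs (-2.47), with 34 of the 67 in 1 barcode, and Egr1 2 THC and 22 vehicle UMIs (-2.18). Dusp1, a phosphatase that ends MAP kinase signals, had 39 THC and 41 vehicle UMIs (1.20). Lyz1, the lysozyme of Paneth cells, had 26 UMIs in 3 THC barcodes and 7 UMIs in 1 vehicle barcode (3.17).

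Over all 64 members, 3.61% of 2933 measured genes were at least 1 log2 unit higher and 9.44% lower in THC members, the median being -0.05. Of the 16 genes named over all members, 10 were named in the macrophage-like class too. Of the others, Ndufb10 is a subunit of respiratory complex I. It had 35 UMIs in 15 of 20 THC members and 21 UMIs in 18 of 44 vehicle members (1.60, 0.78 to 2.46). Ccl9 had 77 THC and 52 vehicle UMIs (1.43), 44.2% of the THC UMIs in 1 barcode. Cwc25, a splicing factor, had 28 THC and 12 vehicle UMIs (2.09), 46.4% of the THC UMIs in 1 barcode. Lyz1 had 32 THC and 19 vehicle UMIs (1.62), 40.6% of the THC UMIs in 1 barcode of 1062 UMIs. In macrophage-like barcodes alone Lyz1 had 6 THC and 12 vehicle UMIs. Cxcl10, which attracts T cells through Cxcr3, had 22 UMIs in 5 THC members and 145 UMIs in 10 vehicle members (-1.85, -2.57 to -1.20). Of the 145, 50 were in 1 macrophage-like barcode and 44 in the dendritic or monocyte-like barcode that also held fibroblast transcripts.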

How the data were processed

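Gene expression was measured in 1 THC and 1 vehicle library of colon cells. The deposited matrices hold raw UMI counts per gene and barcode, which the authors made with Cell Ranger 3.0.2, per the file headers. Of other software, Seurat and bcl2fastq stand in the submitters' processing notes with no version. No source used here names the genome build or annotation. The THC file held uncalled and the vehicle file called barcodes, so the same limits were applied to both. Members and gene lists were chosen with earlier results of these data known.

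UMIs were summed over the barcodes of a class and library and set as CPM, with log2 ratios and exact conditional Poisson 95% intervals (scipy 1.17.1). A gene was measured with 20 UMIs over both libraries, and a library at 0 was set to a floor of 3 UMIs. Shares have exact binomial 95% intervals. Intervals were tested on simulated counts. Named genes needed 30 UMIs, 20% of the barcodes of a library, at most 50% of UMIs in 1 barcode of the higher library and at least 20% of the CPM in every other gated population, and the 8 on each side with the bound nearest 0 farthest out are given, besides members of 23 function and 19 marker lists. In the dendritic or monocyte-like class, with under 15 barcodes in a library, no ranking was made. Mitochondrial, ribosomal, immunoglobulin, haemoglobin, receptor, sex-linked and rule genes were left out of the ranking. Doublets were marked with scrublet (scanpy 1.11.5) and not removed; TMM scaling used edgeR 4.0.16. Motifs were searched in RefSeq promoters of GRCm38.p6. The labels do not say whether each library pooled mice. Results for a few genes of the lists are not reported here.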

Additional observations from a re-analysis of the deposited data

Results flagged for a closer look

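Ccl5 and Isg15 pointed opposite ways in the 2 classes, by over 1 log2 unit in each, and the difference between the classes was not tested. Ccl5 was at least 5.22 log2 units higher in THC macrophage-like barcodes, with 71 THC and 0 vehicle UMIs, and at -1.38 in dendritic or monocyte-like barcodes, with 21 THC and 132 vehicle UMIs. Of these, 53 of the 71, all 21 and 131 of the 132 were in single barcodes. Isg15 had a log2 ratio of 1.04 in macrophage-like barcodes (55 THC and 42 vehicle UMIs) and of -3.46 in dendritic or monocyte-like barcodes (3 THC and 80 vehicle UMIs), where 70 of the 80 vehicle UMIs were in 1 barcode.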

How the results depend on the processing

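With 1 library per group, no result was tested. No paired analysis was possible because the labels carry no replicate numbers and each group has 1 library. Leaving out barcodes with T cell or fibroblast markers, leaving out the member whose barcode is in both libraries, the 2% limit on MHC class II, and leaving out members that entered through Il1b alone were chosen after seeing the data. Leaving out the first kind moved no count by over 1.5 times. Of 880 alternative values, 150 summary values and 659 values of single genes or lists stayed within the limits set for them, 24 and 45 moved and 2 reversed. The reversals came with barcodes thinned to 1000 UMIs, at 0.40 for Mylip over all members and -0.86 for Oasl1 in macrophage-like barcodes, where few UMIs are left. Of 31 ratios of named genes under that thinning, 29 kept their sign and only 13 stayed inside their counting interval.

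Genes at least 1 log2 unit higher and lower numbered 106 and 277 over all members, 106 and 253 in macrophage-like and 83 and 112 in dendritic or monocyte-like barcodes. With 50 UMIs for a measured gene, which tests fewer genes, they were 26 and 63, 21 and 76, and 22 and 32. Thinned, they were 15 and 33, 12 and 41, and 5 and 10. Without the richest barcode of each gene, 54, 46 and 10 were higher. TMM scaling, which shifts the dendritic or monocyte-like ratios by -0.28 log2 units, gave 39 and 193 there, and the mean of CPM per barcode 161 higher over all members and 174 lower in the dendritic or monocyte-like class. With mitochondrial shares under 5%, 172 genes were lower over all members, 59.3% of vehicle members were macrophage-like and the MHC class II median was 0.30. At or above 2% MHC class II, 143 genes were lower in macrophage-like barcodes and that median was 0.15. The cause of the other moves was not tested. Depth limits the dendritic or monocyte-like class most, with 49080 THC and 118784 vehicle UMIs.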

Other observations

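Among barcodes with 10% or more mitochondrial UMIs, which the rule leaves out, 1 of 232 in the THC library met the rest of the gate (0.431%, 0.0109 to 2.38) and 0 of 281 in the vehicle library, where the exact binomial upper limit is 1.3% and 3 counts of the total would be 1.07%. The THC barcode had at least 5 C1q UMIs and 5059 UMIs. None of 10 THC and 14 vehicle barcodes with at least 500 and under 1000 UMIs met the gate.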
